A study of Homo sapiens with 14 samples.

Results

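The genes described here are 8 that sense double-stranded RNA or act directly beside the sensors: DDX58 (now named RIGI), IFIH1, DHX58, MAVS, TLR3, ZBP1, EIF2AK2 and ADAR. They were chosen by name from the 20049 gene symbols of a count table of human neuroblastoma cell lines. No rule on their levels was used, but earlier results of these data were known when they were chosen. All 8 were in the table. RNA-seq was done on total RNA from 14 lines, 1 library each: LS, NGP, SH-SY5Y, IMR32, SK-N-FI, Lan-6, NBL-S, SK-N-SH, CLB-GA, IMR5-75, SK-N-DZ, GI-ME-N, SK-N-AS and SK-N-BE(2)C. The labels give no treatment, genotype or group that sets any line apart, so the lines were compared one by one and along measured levels. Culture was in RPMI or DMEM medium with serum, and the labels do not say which line had which medium. The study's title concerns telomere damage and the immunogenicity of neuroblastoma. No line has a replicate library, so every interval on a level covers counting error only and says nothing of how a line varies between cultures.

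Long double-stranded RNA is rare in the cytoplasm of a healthy cell and is read as a sign of viral infection, or of the cell's own RNA gone astray. The helicases RIG-I (DDX58) and MDA5 (IFIH1) bind it and signal through MAVS on mitochondria, and TLR3 binds it in endosomes. Both routes end in interferon, whose target genes include most of the sensors themselves. PKR (EIF2AK2) stops translation when it binds such RNA, ZBP1 binds Z-form nucleic acid and can start cell death, and ADAR edits adenosines in double-stranded RNA so that the cell's own transcripts are less readily sensed.

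In GENCODE 29 on GRCh38 the members lie on 6 autosomes. DDX58 is at chr9:32455705-32526324 (minus strand), IFIH1 at chr2:162267079-162318703 (minus strand) and DHX58 at chr17:42101404-42112733 (minus strand). MAVS is at chr20:3846799-3876123 (plus strand), TLR3 at chr4:186069152-186088069 (plus strand) and ZBP1 at chr20:57603846-57620576 (minus strand). EIF2AK2 is at chr2:37099210-37157065 (minus strand) and ADAR at chr1:154582057-154628013 (minus strand). EIF2AK2 overlaps GPATCH11 on the other strand and a processed pseudogene, and the strand setting of the counting is not given in the sources used here, so its counts are uncertain to that extent. The table sums each gene, so the long interferon-inducible and the short constitutive protein of ADAR cannot be told apart.

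Interferon acts on many of its target genes through a promoter element of repeated GAAA, so the promoters were read for it. RefSeq promoters (GRCh38.p14, 250 bases before to 50 after a start) matched 6 of the 8 members by symbol: DDX58, IFIH1, MAVS, TLR3, EIF2AK2 and ADAR. The pattern GAAANNGAAA, on either strand, was in 3.57% of 35114 promoters of this length, and in at least 1 promoter of 4.38% of 27303 genes. It was in 17 of the 24 genes with a promoter entry among those of the interferon-stimulated gene score used below. IFIH1 holds 3 matches, TLR3 1 and EIF2AK2 1, and none was in the windows of DDX58, MAVS or ADAR. Shown are 4 windows: IFIH1, whose level differed most between lines, TLR3, which ran with it over the lines, EIF2AK2, a steadier gene with a match, and DDX58, an inducible sensor with none. Letters run 5′ to 3′ along the gene's strand, and capitals mark matches to GAAANNGAAA or its reverse complement. In IFIH1 2 reverse matches overlap in 1 run of capitals.

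IFIH1, chr2:162318635-162318934, minus strand: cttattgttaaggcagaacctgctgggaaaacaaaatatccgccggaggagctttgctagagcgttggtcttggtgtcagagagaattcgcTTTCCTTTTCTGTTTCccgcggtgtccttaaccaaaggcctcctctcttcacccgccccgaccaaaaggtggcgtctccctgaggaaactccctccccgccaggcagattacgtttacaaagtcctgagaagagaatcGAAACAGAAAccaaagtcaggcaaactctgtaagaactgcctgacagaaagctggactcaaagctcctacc

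TLR3, chr4:186068906-186069205, plus strand: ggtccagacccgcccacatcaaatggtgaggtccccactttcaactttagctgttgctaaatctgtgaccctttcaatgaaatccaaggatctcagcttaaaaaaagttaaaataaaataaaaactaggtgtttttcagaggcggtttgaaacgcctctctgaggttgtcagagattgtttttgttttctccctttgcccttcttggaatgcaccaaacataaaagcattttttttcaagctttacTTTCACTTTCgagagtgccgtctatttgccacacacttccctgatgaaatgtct

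EIF2AK2, chr2:37156931-37157230, minus strand: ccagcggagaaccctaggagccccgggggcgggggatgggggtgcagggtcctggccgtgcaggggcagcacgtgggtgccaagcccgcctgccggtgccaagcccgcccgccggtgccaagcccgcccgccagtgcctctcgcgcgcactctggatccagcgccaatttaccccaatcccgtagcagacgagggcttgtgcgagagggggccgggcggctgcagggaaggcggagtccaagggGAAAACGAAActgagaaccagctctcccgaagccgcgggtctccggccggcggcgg

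DDX58, chr9:32526147-32526446, minus strand: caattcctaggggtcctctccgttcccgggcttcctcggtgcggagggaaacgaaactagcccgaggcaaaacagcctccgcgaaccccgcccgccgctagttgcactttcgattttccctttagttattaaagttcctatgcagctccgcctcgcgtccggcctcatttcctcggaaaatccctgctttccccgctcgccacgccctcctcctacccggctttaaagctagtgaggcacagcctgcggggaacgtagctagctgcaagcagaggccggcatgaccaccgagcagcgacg

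The shorter pattern AANNGAAA, which lies inside every GAAANNGAAA, was in 22.8% of all promoters, in 26.7% of all genes and in 22 of the 24 score genes. DDX58 holds 3 matches to it, IFIH1 4, TLR3 1 and EIF2AK2 1. A match is a description of the letters only.

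Libraries held 35856642 (Lan-6) to 58644013 (LS) counts over all genes, and 3 counts came to 0.0514 to 0.102 CPM, the limit that a count of 0 allows. CPM stands for counts per 1000000 counts of a library, scaled by TMM, edgeR's normalization across libraries. No 2 of the 91 pairs of libraries held identical counts. Lan-6 and GI-ME-N stood apart from the other 12 in the trend with gene length. The deviation of each of 6230 stably expressed genes from its mean over lines was correlated with its length and GC content. Spearman's rho with length was -0.430 in Lan-6 and -0.391 in GI-ME-N, and with GC content 0.648 and 0.238. In LS the rho with GC content was -0.363, larger in size than in GI-ME-N. Levels with the GC and length trend removed are therefore given beside some of the members' levels, chiefly in Lan-6 and GI-ME-N. Neuroblast markers checked the label: 11 or 12 of 12 had at least 10 counts in every line, with TH at 0 in SK-N-SH. SK-N-AS had 469.6 CPM of PTPRC, a leukocyte gene, and no other line more than 2.91 CPM. The 8 leukocyte markers summed to 487 CPM in SK-N-AS and to at most 47.7 CPM in any other line. Of them CD3E and TYROBP were at 0 in SK-N-AS, CD14, LYZ and ITGAM had at most 8 counts, and CD68 stood at 17.5 CPM. The part of other cells in the SK-N-AS levels below was not tested.

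**Figure D1:**
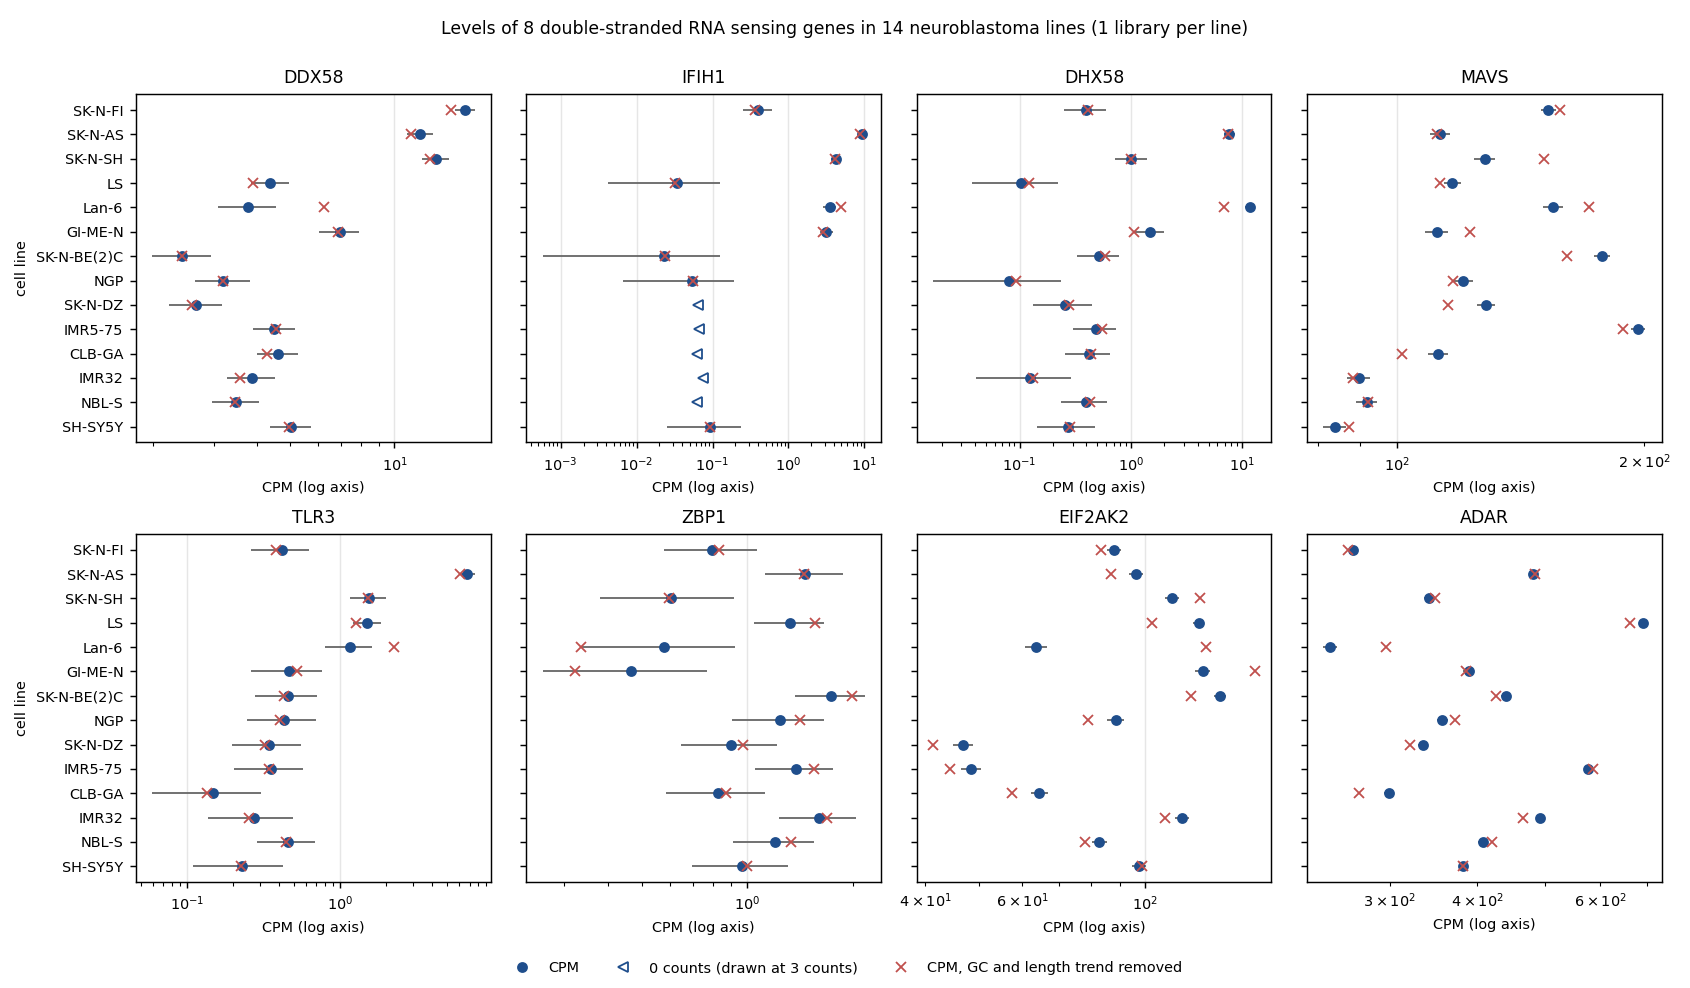
Level of each of the 8 genes (one panel each) in 14 lines, in CPM on a log axis, with lines ordered by their interferon-stimulated gene score. Bars are 95% exact Poisson intervals (counting error only), open triangles mark 0 counts drawn at the limit of 3 counts, and crosses show the level with the GC and length trend removed; IFIH1 and DHX58 cover the widest ranges and MAVS the narrowest.

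Among the 3 helicases, DDX58, which binds RNA with a 5′ triphosphate, had at least 107 counts in every line. SK-N-FI had 15.96 CPM, SK-N-SH 13.1, SK-N-AS 11.9 and GI-ME-N 6.94. The remaining 10 lines lay between 5.02 CPM (SH-SY5Y) and 2.44 CPM (SK-N-BE(2)C), with a median of 4.43 CPM over all 14. The highest line was thus 6.55 times the lowest. SK-N-FI lay above SK-N-SH beyond the counting intervals (its interval starts at 14.9 CPM and that of SK-N-SH ends at 14.4), SK-N-SH and SK-N-AS overlapped, and GI-ME-N was clear of the lines on either side of it. From SH-SY5Y down, every neighbouring pair overlapped. Lan-6, at 3.76 CPM, stood at 6.24 CPM with the trend removed.

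IFIH1, which binds long double-stranded RNA, split the lines far more sharply. SK-N-AS had 391 counts (9.23 CPM), SK-N-SH 155 (4.25 CPM), Lan-6 104 (3.53 CPM) and GI-ME-N 102 (3.16 CPM). SK-N-FI, the line with the most DDX58, had 22 IFIH1 counts (0.397 CPM). In the other 9 lines the gene was at or near the limit of detection: 4 counts in SH-SY5Y, 2 in NGP, 2 in LS, 1 in SK-N-BE(2)C and 0 in CLB-GA, IMR32, IMR5-75, NBL-S and SK-N-DZ. The SK-N-AS level was at least 123 times the CPM of 3 counts in every line with 0 counts. This ratio leaves out counting error in SK-N-AS, whose interval starts at 8.34 CPM. Among the lines with 0 counts the highest interval end was 0.0921 CPM (IMR32). SK-N-AS and SK-N-FI were each clear of their neighbours in the order, and SK-N-SH, Lan-6 and GI-ME-N overlapped one another in turn. Trend removal put Lan-6 at 4.91 CPM and GI-ME-N at 2.86 CPM and left both among the 4 high lines.

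DHX58 (LGP2), a helicase without the signalling domains of the other two that tunes their activity, was highest in Lan-6, with 349 counts (11.8 CPM), and SK-N-AS, with 326 (7.69 CPM). GI-ME-N followed at 1.49 CPM and SK-N-SH at 1.02 CPM, and these overlapped. SK-N-SH, with an interval from 0.715 CPM, also overlapped the next line, SK-N-BE(2)C, whose interval ends at 0.786 CPM. The remaining 10 lines lay between 0.524 CPM (SK-N-BE(2)C) and 0.0807 CPM (NGP, 3 counts), each overlapping the next. The order of the top pair changed with the composition trend: with the trend removed SK-N-AS (7.54 CPM) was above Lan-6 (6.95 CPM). GI-ME-N then stood at 1.08 CPM.

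The 4 lines high in IFIH1 were also the 4 highest in DHX58, though the lowest of them, SK-N-SH, overlapped the next line. SK-N-FI, highest in DDX58, was 8th in DHX58 at 0.397 CPM. The 3 helicases together came to 28.8 CPM in SK-N-AS, 19.1 in Lan-6, 18.4 in SK-N-SH, 16.8 in SK-N-FI and 11.6 in GI-ME-N, and to at most 5.39 CPM in the other 9 lines. DDX58 made up 95.3% of that sum in SK-N-FI, 71.4% in SK-N-SH, 59.9% in GI-ME-N, 41.2% in SK-N-AS and 19.7% in Lan-6. In each of the other 9 lines its share was at least 81.7% (SK-N-BE(2)C). These sums are of reads and are not corrected for gene length.

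MAVS, the adaptor on which RIG-I and MDA5 converge, was among the steadiest genes. It ran from 197 CPM in IMR5-75 through a median of 118 CPM to 83.9 CPM in SH-SY5Y, a ratio of 2.34. IMR5-75 and SK-N-BE(2)C (178 CPM) were each clear of the next line. Lan-6 (155 CPM) and SK-N-FI (153 CPM) overlapped, and with the trend removed Lan-6, at 171 CPM, passed SK-N-BE(2)C, at 161 CPM. GI-ME-N moved to 123 CPM and SK-N-SH from 128 to 151 CPM. Before that removal a run of 5 lines from NGP (120.2 CPM) to GI-ME-N (112 CPM) overlapped in turn. SK-N-AS, highest in IFIH1, held 113 CPM of MAVS, below the median. SK-N-DZ, with no IFIH1 counts, held 128 CPM.

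TLR3, the endosomal receptor, was at 6.73 CPM in SK-N-AS (285 counts), above every other line beyond the counting intervals. SK-N-SH (1.54 CPM), LS (1.51 CPM) and Lan-6 (1.15 CPM, or 2.25 with the trend removed) formed an overlapping second rank. The other 10 lines lay between 0.465 CPM (GI-ME-N) and 0.148 CPM (CLB-GA, 7 counts) and overlapped in turn. LS had TLR3 with 2 IFIH1 counts, and GI-ME-N had IFIH1 with TLR3 no higher than the low lines.

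ZBP1, the Z-nucleic acid sensor, had low but measurable counts in every line, 15 to 77. The range was 1.73 CPM (SK-N-BE(2)C) to 0.465 CPM (GI-ME-N), with a median of 1.08 CPM, and each line overlapped the next. Its lowest 3 lines, SK-N-SH (0.604 CPM), Lan-6 (0.576 CPM) and GI-ME-N, were among the 4 highest in IFIH1, whereas SK-N-AS, at 1.46 CPM, was among the 3 highest in ZBP1. Trend removal lowered Lan-6 to 0.336 CPM and GI-ME-N to 0.322 CPM. RIPK3, the kinase through which ZBP1 starts necroptosis, had at most 2 counts in any line and 0 in 8.

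EIF2AK2 (PKR) was high throughout, with at least 1874 counts a line. SK-N-BE(2)C (137 CPM), GI-ME-N (127 CPM) and LS (125 CPM) were highest, and CLB-GA (64.4 CPM), Lan-6 (63.5 CPM), IMR5-75 (48.5 CPM) and SK-N-DZ (46.9 CPM) lowest, around a median of 92.4 CPM. Lan-6's place changed with the composition trend: with the trend removed it stood at 129 CPM, second to GI-ME-N at 158 CPM. SK-N-SH then stood at 126 CPM, SK-N-BE(2)C at 121 CPM and LS at 103 CPM. IMR32 (117 CPM) and IMR5-75, parent and subclone by textbook knowledge, did not overlap, with counting intervals of 114 to 120.2 and 46.4 to 50.5 CPM.

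ADAR, the editor, was the most abundant member, with 7268 to 40263 counts. LS (690.1 CPM), IMR5-75 (577 CPM), IMR32 (492 CPM) and SK-N-AS (481 CPM) were highest. CLB-GA (299.6 CPM), SK-N-FI (266 CPM) and Lan-6 (246 CPM) were lowest, and the median was 385 CPM. With the trend removed Lan-6 stood at 297 CPM and SK-N-FI, at 262 CPM, was lowest. Most neighbours differed beyond counting error at this depth, the exceptions being IMR32 with SK-N-AS, GI-ME-N with SH-SY5Y, and SK-N-SH with SK-N-DZ.

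Only per length can the members be ranked among themselves. Per kilobase of the longest transcript, the median over lines was 57.5 CPM for ADAR, 10.1 for MAVS, 9.20 for EIF2AK2, 1.02 for DDX58, 0.493 for ZBP1, 0.157 for DHX58, 0.0736 for TLR3 and 0.0123 for IFIH1. With the median transcript length EIF2AK2 came to 21.3 CPM per kilobase and passed MAVS (10.2). The editor, the adaptor and the kinase were thus each above all the other members in median level per length.

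The 3 genes highest per length had the smallest spread between lines. The SD of log2 CPM over the 14 lines was 2.93 for IFIH1, 1.95 for DHX58, 1.33 for TLR3, 0.85 for DDX58, 0.56 for ZBP1, 0.50 for EIF2AK2, 0.41 for ADAR and 0.36 for MAVS. Among 18462 detected genes, with a median SD of 0.85, these stood at the 95.4th, 84.0th, 70.4th, 49.6th, 22.0th, 15.4th, 7.25th and 3.68th percentiles. On the deposited variance-stabilised log2 values, which compress low counts, the SDs of IFIH1, DHX58 and TLR3 were 1.25, 1.11 and 0.82.

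**Figure D2:**
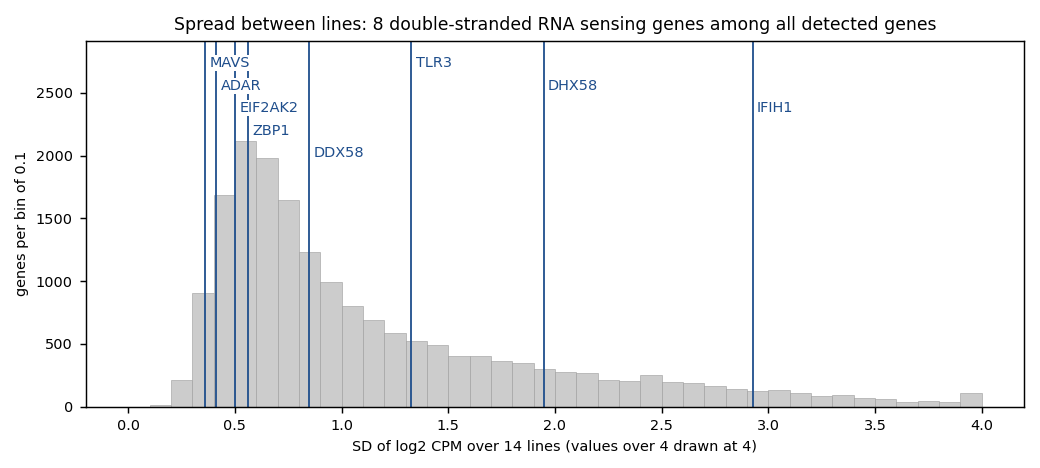
Histogram of the SD of log2 CPM over 14 lines for 18462 detected genes, in bins of 0.1, with vertical lines at the 8 genes. MAVS, ADAR, EIF2AK2 and ZBP1 lie at 0.36 to 0.56, DDX58 at 0.85 near the median of all genes, and TLR3, DHX58 and IFIH1 at 1.33, 1.95 and 2.93.

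By line, SK-N-AS was above the gene's own median for 7 of the 8 members, all but MAVS, and SK-N-DZ for 1 (MAVS). SK-N-BE(2)C, GI-ME-N and SK-N-SH were above it for 6 each, but for different genes. With the trend removed GI-ME-N was above it for 7, Lan-6 for 6 (4 before), SK-N-AS for 6 and SK-N-DZ for 0. SK-N-BE(2)C was highest in ZBP1 and lowest in DDX58 with the trend or without it. It was highest in EIF2AK2 only before the trend was removed, and then stood at 121 CPM behind GI-ME-N, Lan-6 and SK-N-SH.

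**Figure D3:**
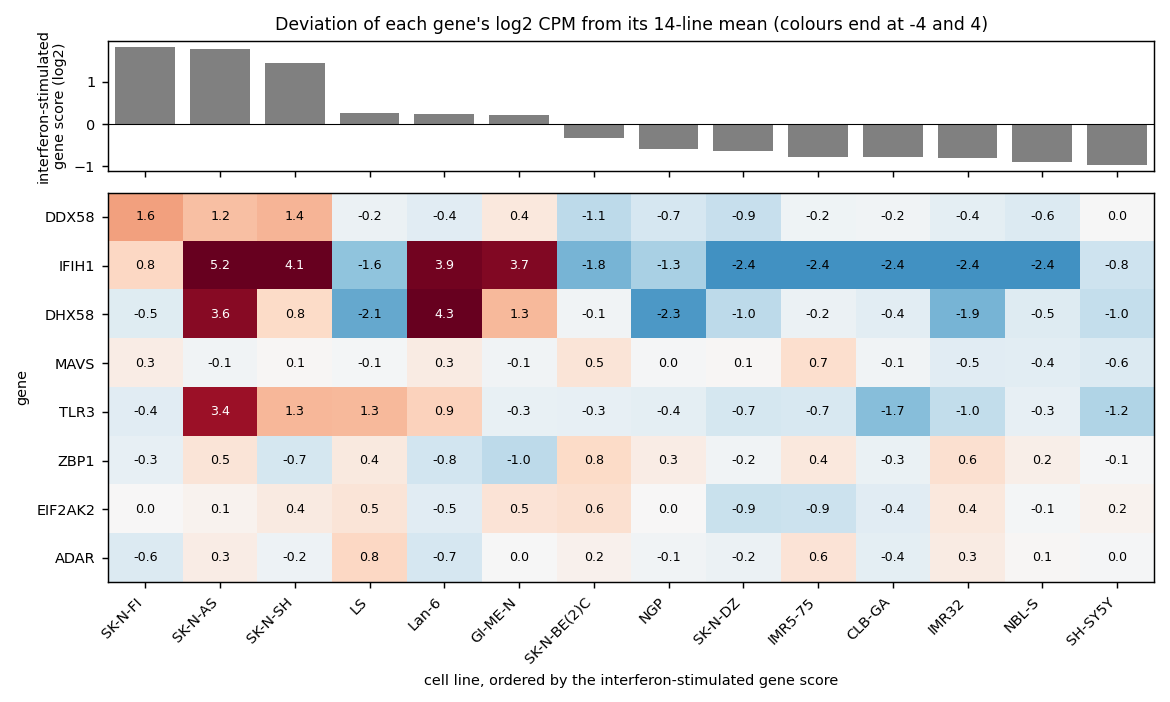
Deviation of each gene's log2 CPM from its mean over the 14 lines (lower panel, log2 units, colour scale ending at -4 and 4) below the interferon-stimulated gene score of each line (upper panel, mean centred log2 CPM of 28 genes). IFIH1 and DHX58 hold the deepest colours, with SK-N-AS, Lan-6, GI-ME-N and SK-N-SH above their means, and MAVS, ZBP1, EIF2AK2 and ADAR stay within about 1 unit.

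Textbook knowledge, not the labels, gives SK-N-SH as the parent of SH-SY5Y and IMR32 as that of IMR5-75, so relations between lines were computed over the other 12. SK-N-SH exceeded SH-SY5Y in DDX58 (13.1 against 5.02 CPM), in IFIH1 (155 against 4 counts), in DHX58 (1.02 against 0.275 CPM) and in TLR3 (1.54 against 0.229 CPM), with no overlap of counting intervals in any of the 4. IMR32 and IMR5-75 overlapped in DDX58, TLR3 and ZBP1 and both had 0 counts of IFIH1. They did not overlap in DHX58 (0.125 against 0.487 CPM), MAVS (89.7 against 197 CPM), ADAR (492 against 577 CPM) or EIF2AK2.

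Across the 12 lines the sensors ran together to differing degrees, as a description with points that share library depth and composition. Pearson's r of log2 CPM was 0.826 for IFIH1 with DHX58 (Spearman 0.630), 0.709 for IFIH1 with TLR3 (0.779) and 0.683 for DDX58 with IFIH1 (0.562). It was 0.592 for DHX58 with TLR3 (0.483), 0.462 for DDX58 with TLR3 (0.308) and 0.354 for DDX58 with DHX58 (0.357). ZBP1 and ADAR had r of 0.641, and ZBP1 with IFIH1 -0.526. EIF2AK2 with ADAR had r of 0.620, which fell to 0.298 with the composition trend removed. The values for IFIH1 rest mainly on SK-N-AS, SK-N-SH, Lan-6, GI-ME-N and SK-N-FI, as the rest of the 12 lines had at most 2 counts of it.

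Each member was then set against 4 levels measured in the same lines: a score of 28 interferon-stimulated genes, a score of 15 mesenchymal genes, the level of MYCN (the oncogene often amplified in neuroblastoma) and the level of TERT (the catalytic subunit of telomerase). A slope is the log2 change of the gene per SD of the level over the 12 lines, from edgeR's quasi-likelihood test with Benjamini-Hochberg adjustment over all genes tested and a threshold of 0.05. Genes that make up a level were left out of its fit, and no member is among them. The SDs are 1.02 log2 units for the interferon-stimulated gene score, 2.87 for the mesenchymal score, 4.69 for MYCN and 3.19 for TERT.

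MYCN was the level on which a member passed by edgeR. The levels share lines at their ends, so relations to MYCN and to the other levels were not separated here. SK-N-SH and SK-N-AS, lowest in MYCN, were among the highest in the interferon-stimulated gene score (1.46 and 1.78), but so was SK-N-FI (1.84), with more MYCN. SK-N-SH and GI-ME-N were highest in the mesenchymal score (6.26 and 5.38), but Lan-6 was lowest (-2.16). SK-N-SH had 0.384 CPM of MYCN, SK-N-AS 0.496, GI-ME-N 1.33 and Lan-6 7.29. SH-SY5Y followed with 21.5 CPM, CLB-GA with 27.5, SK-N-FI with 49.95 and NBL-S with 213. The other lines held 598 CPM (IMR5-75), 949 (LS), 1177 (NGP), 1209 (SK-N-DZ), 1442 (IMR32) and 2245 (SK-N-BE(2)C). The 4 lines lowest in MYCN are the 4 highest in IFIH1 and in DHX58. In DHX58 the lowest of the 4, SK-N-SH, overlapped SK-N-BE(2)C, the line highest in MYCN.

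Over all genes 3.46% (634 of 18302) were called on MYCN, 197 rising and 437 falling. Of the 8 members, all tested, 1 was called: IFIH1 fell by 3.58 per SD (SE 0.62, adjusted p = 0.0263 by edgeR). DHX58 missed the threshold at -2.06 (SE 0.54, adjusted p = 0.0541), as did DDX58 at -0.71 (SE 0.24, adjusted p = 0.103) and TLR3 at -0.97 (SE 0.34, adjusted p = 0.106). These 4 had an unadjusted p under 0.05, as did 24.9% of all genes. The slopes of MAVS (0.01), EIF2AK2 (0.0015), ADAR (0.12) and ZBP1 (0.32) were smaller than 2 SEs. The members' median slope was -0.35, against -0.01 over all genes.

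The IFIH1 call depended on which lines were fitted. It was lost without GI-ME-N, IMR32, NGP, SK-N-DZ or SK-N-SH (adjusted p of 0.0552, 0.0608, 0.0640, 0.0563 and 0.0557) and with the subclones in place of their parents (-3.26, adjusted p = 0.0733 by edgeR). The slope itself stayed between -3.80 and -3.32 over the 12 left-out lines. It is a fitted value for a gene at 0 in many lines and no bound. DESeq2's Wald test called IFIH1, DHX58 (adjusted p = 2.5e-04) and DDX58 (adjusted p = 0.0135), with 3268 genes in all. DHX58 was also called by edgeR without Lan-6 (-1.62, adjusted p = 0.0278) and with the trend removed (-1.78, adjusted p = 0.0433). TLR3 rested on 1 line: without SK-N-AS its slope was -0.34.

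**Figure D4:**
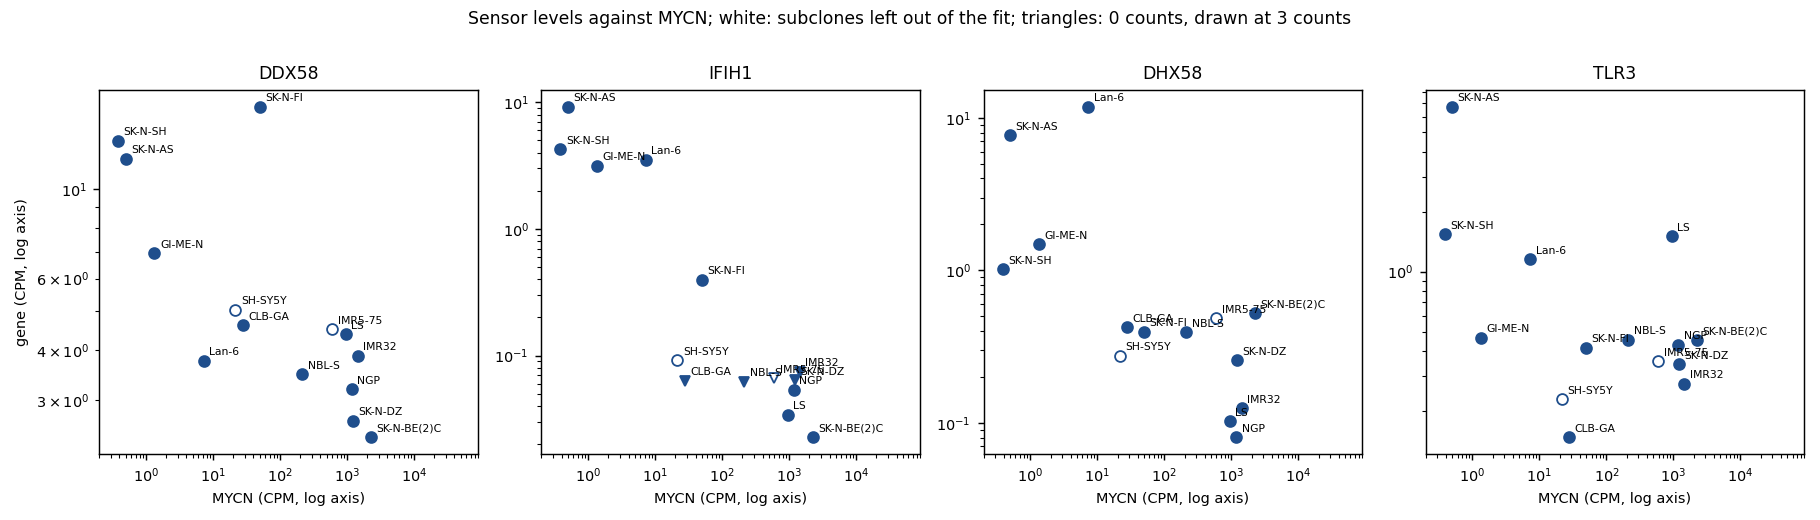
Level of DDX58, IFIH1, DHX58 and TLR3 (CPM, log axis) against MYCN (CPM, log axis) in 14 lines. White points are the 2 subclones left out of the fit and triangles are 0 counts drawn at 3 counts; the IFIH1 panel has 4 lines at 3.16 to 9.23 CPM, all at or under 7.29 CPM of MYCN, and 9 lines at or under 4 counts.

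On the interferon-stimulated gene score, edgeR called 0% of 18275 genes and 0 members, though 1648 genes and 3 members had an unadjusted p under 0.05. DESeq2 called 747 genes and 3 members (DDX58, IFIH1 and TLR3), and limma on the deposited log2 values 1 gene and 0 members. The slopes were 0.82 for DDX58 (SE 0.17, adjusted p = 0.282), 1.31 for TLR3 (SE 0.31, adjusted p = 0.282), 3.58 for IFIH1 (SE 1.20, adjusted p = 0.392) and 1.56 for DHX58 (SE 0.83, adjusted p = 0.602), all by edgeR. MAVS (0.09), EIF2AK2 (0.08), ADAR (-0.03) and ZBP1 (-0.14) were each within 1 SE of 0.

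That score does not spread the lines evenly. SK-N-FI (1.84), SK-N-AS (1.78) and SK-N-SH (1.46) stand above a gap of 0.439 of the range, with the other 9 at 0.26 or lower, so the slopes rest mainly on 3 against 9 lines. Within the 9, whose own SD sets the unit, DDX58 had a slope of 0.20 (adjusted p = 0.747), TLR3 0.79 (adjusted p = 0.317) and DHX58 1.83 (adjusted p = 0.317) by edgeR. IFIH1 did not reach 10 counts in 3 of those lines and was not tested there. SK-N-FI shared the highest score with the highest DDX58 level, 22 IFIH1 counts and 22 DHX58 counts. Without SK-N-AS the TLR3 slope over the remaining 11 lines was 0.70.

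On the mesenchymal score 5.95% of 18288 genes were called (663 rising, 426 falling) and 0 members by edgeR, DESeq2 or limma, with 0 members at an unadjusted p under 0.05. The slopes ran from -0.35 (ZBP1) to 1.13 (IFIH1, SE 0.94). GI-ME-N (5.38) and SK-N-SH (6.26) have the highest score and Lan-6 the lowest (-2.16), and all of them are among the IFIH1-high lines. Without Lan-6 the slope of IFIH1 was 4.04 and that of DHX58 turned from -0.23 to 1.22, neither called.

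On TERT 0% of 18302 genes and 0 members were called by edgeR, with 1286 genes and 1 member (DHX58, -1.19, SE 0.54, adjusted p = 0.691) at an unadjusted p under 0.05. DESeq2 called 370 genes and 0 members, and limma 0 genes and 0 members. TERT ranged from 0 counts in SK-N-FI and 2 counts in Lan-6 to 68.5 CPM in GI-ME-N, and those 2 lines are the highest in DDX58 (SK-N-FI) and, before the composition trend was removed, in DHX58 (Lan-6).

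**Figure D5:**
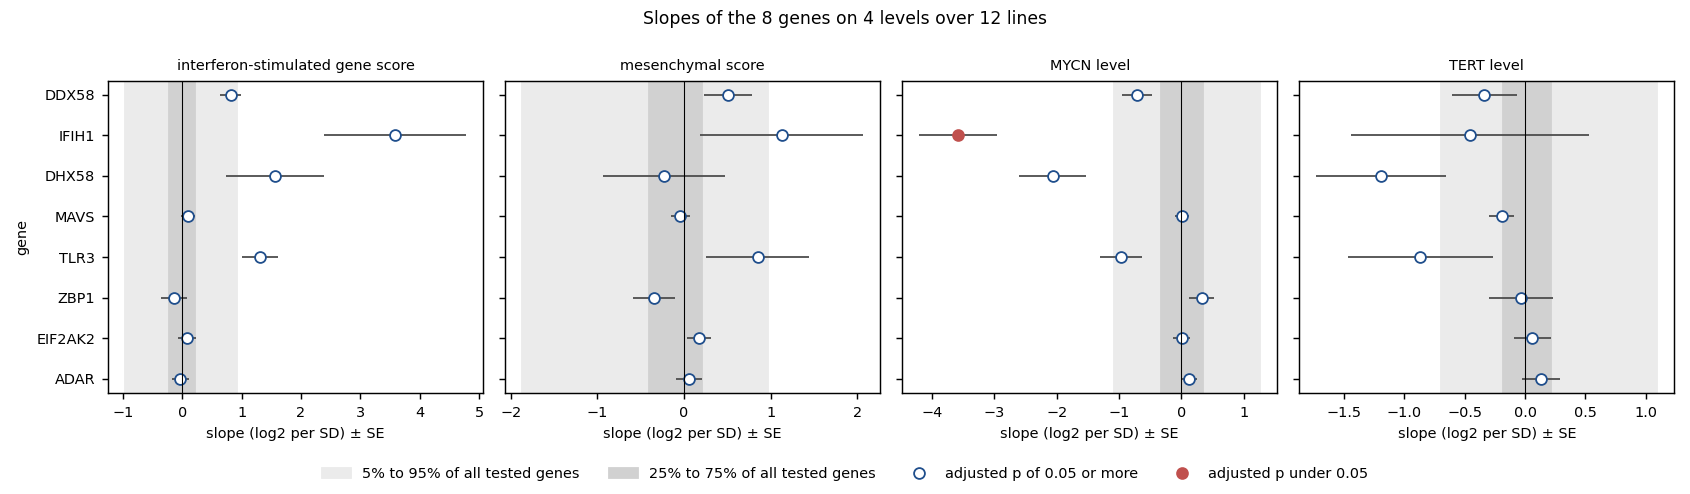
Slope (log2 per SD of the level, ± SE) of each of the 8 genes on the 4 levels over 12 lines, with grey bands for the middle 50% and 90% of all tested genes. IFIH1 on MYCN (-3.58) is the filled point, with an adjusted p under 0.05; MAVS, EIF2AK2 and ADAR lie near 0 in every panel.

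The other genes of these pathways were taken from fixed lists of 55 genes, of which 51 were in the table and 48 were tested. None was called on the interferon-stimulated gene score or on TERT by edgeR, which called 0% of all genes there. At an unadjusted p under 0.05 were 9 and 7 of the 48, beside 9.02% and 7.03% of all genes. DESeq2 called 6 and 1 of the 48, beside 747 of 18275 and 370 of 18302 genes, and limma 0 and 0. On the interferon-stimulated gene score 34 of the 48 slopes were positive, against 49.1% of all genes, with a median of 0.21. Positive slopes numbered 35 on the mesenchymal score (median 0.20), 15 on MYCN (median -0.26) and 25 on TERT (median 0.04). Over all genes the shares were 45.1%, 49.4% and 52.7%. On MYCN 2 were called, both falling: UNC93B1, which carries TLR3 to endosomes (-1.58, SE 0.39, adjusted p = 0.0473), and PPP1R15A, which undoes PKR's mark on eIF2alpha (-0.86, SE 0.20, adjusted p = 0.0389, by edgeR). These 2 of 48 compare with 3.46% of all genes. Each call was lost without any 1 of 8 of the 12 lines, with the subclones in place of their parents (adjusted p = 0.0993 for UNC93B1 and 0.0972 for PPP1R15A by edgeR) and with the trend removed (0.0613 and 0.0972). The lines were GI-ME-N, IMR32, NBL-S, NGP, SK-N-DZ, SK-N-FI and SK-N-SH for both, with LS for UNC93B1 and SK-N-BE(2)C for PPP1R15A, and the adjusted p was at most 0.117 and 0.0950. DESeq2 called 10 of the 48 on MYCN (2 rising, 8 falling) and limma 2, beside 3268 and 380 of 18302 genes. On the mesenchymal score 2 were called, both rising: PPP1R15A (0.89, SE 0.19, adjusted p = 0.0136) and EIF2AK4, another kinase of eIF2alpha (0.62, SE 0.12, adjusted p = 0.0110, by edgeR). Over all genes 5.95% were called on that score. Without GI-ME-N both calls were lost (adjusted p = 0.0908 and 0.0691), and without SK-N-SH that of EIF2AK4 was (adjusted p = 0.0644 by edgeR). DESeq2 called 6 of the 48 on that score (4 rising, 2 falling), beside 3046 of 18288 genes, and limma called 4.

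Downstream of the helicases, 15 genes of MAVS signalling and its regulators were tested, with 0 called on any of the 4 levels by edgeR. At an unadjusted p under 0.05 were 3 on the interferon-stimulated gene score, 2 on the mesenchymal score, 6 on MYCN and 1 on TERT, beside 9.02%, 21.3%, 24.9% and 7.03% of all genes. In the same order DESeq2 called 2, 1, 4 and 0 of them and limma 0, 2, 0 and 0. Over all genes DESeq2 called 747, 3046, 3268 and 370. TBK1, the kinase that activates IRF3, had at least 12.8 CPM (Lan-6) in every line, and IRF3 at least 11.3 CPM (IMR32). IKBKE, its relative, ranged from 0 counts in IMR32 to 808 counts in GI-ME-N. NLRX1, a mitochondrial regulator of MAVS, had 0 counts in NGP and 34.0 CPM in SK-N-SH. DDX60, a helicase that acts with RIG-I, was highest in SK-N-AS at 28.3 CPM.

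Beside TLR3 and ZBP1, the adaptor and death kinase list had 7 of 8 genes tested. All 7 slopes on MYCN were negative, with 1 called (UNC93B1) and 6 at an unadjusted p under 0.05, beside 3.46% and 24.9% of all genes, and a median of -0.80 against -0.01 over all genes. All 7 were positive on the interferon-stimulated gene score (median 0.70) and on the mesenchymal score (median 0.72), with 0 called by edgeR. Over all genes 49.1% and 45.1% were positive there. On TERT 4 were positive. In the order of those scores, MYCN and TERT, DESeq2 called 2, 1, 4 and 0 and limma 0, 0, 1 and 0. TICAM1, the adaptor of TLR3, was highest in GI-ME-N (32.1 CPM) and lowest in SK-N-DZ (2.42 CPM). With the trend removed SK-N-SH was highest in TICAM1 (24.8 CPM) and GI-ME-N stood at 23.4 CPM. UNC93B1 was highest in SK-N-SH (29.1 CPM) and lowest in IMR32 (3 counts). CASP8 was highest in SK-N-AS (40.0 CPM) and lowest in Lan-6 (1.05 CPM), a line with 34 TLR3 counts.

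Among the OAS enzymes, which bind double-stranded RNA and make short oligoadenylates, OAS1 was at 81.9 CPM in Lan-6 (75.4 with the trend removed) and at most 22.5 CPM elsewhere. OAS3 was highest in SK-N-FI at 78.8 CPM and lowest in LS at 3 counts. SK-N-FI, highest in OAS3, had 22 IFIH1 counts, and Lan-6, highest in OAS1, had 104.

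Beside ADAR, ADARB1, the second active editor, had a median of 36.5 CPM and 107 CPM in GI-ME-N, and ADARB2, which lacks editing activity, ranged from 0 counts in GI-ME-N to 8.66 CPM in NBL-S. DROSHA, which cuts hairpins of microRNA precursors, had an SD of 0.19. Of the 10 genes of editing and processing none was called on any of the 4 levels by edgeR. At an unadjusted p under 0.05 were 2 on the interferon-stimulated gene score, 1 on the mesenchymal score, 0 on MYCN and 3 on TERT. These are of 10 genes each, beside 9.02%, 21.3%, 24.9% and 7.03% of all genes. DESeq2 called 1 on each of the first 3 levels and 0 on TERT, and limma 0 on each. Over all genes DESeq2 called 747 of 18275, 3046 of 18288, 3268 of 18302 and 370 of 18302.

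Among the products of these pathways, SK-N-AS was the only line with counts of CXCL10, and it had 5. CCL5 ranged from 0.275 to 1.12 CPM and IL6 from 0 counts in 11 lines to 2.39 CPM in GI-ME-N. The interferon genes of the list, IFNB1 and IFNL1 to IFNL3, were not in the count table under these names and so were not analysed.

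The genes most like each member over the 12 lines were named by Pearson's r of log2 CPM among genes with enough counts, the 3 highest for each, as a description. They were FXYD5 (0.971), MOV10 (0.962) and NUDCD3 (0.961) for IFIH1, and DDT (0.960), WDR45 (0.956) and MRM2 (0.952) for DHX58. For DDX58 they were TMBIM1 (0.904), RNF41 (0.881) and SNX7 (0.878), and for TLR3 NIT1 (0.869), SCNN1D (0.851) and MYL5 (0.849). ZBP1 had TUBE1 (0.945), ZNF70 (0.918) and ZBTB21 (0.909), EIF2AK2 had ZFHX4 (0.886), CHST3 (0.871) and CMAHP (0.865), and MAVS had PFKM (0.813), HPCAL1 (0.811) and IFFO1 (0.798). With the composition trend removed, r fell most for PFKM with MAVS (0.537), ZFHX4 with EIF2AK2 (0.696) and WDR45 with DHX58 (0.731). ADAR's 3 were EPRS (0.901), ZC3H11A (0.890) and ODR4 (0.890), all on chromosome 1, where ADAR lies.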

How the data were processed

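Gene counts from RNA-seq of 14 neuroblastoma cell lines were analysed, 1 library per line. The authors deposited estimated counts rounded to whole numbers, and a table of variance-stabilised log2 values, judged from the values. GRCh38, kallisto 0.44.0 and DESeq2 1.48.2 are listed, per the submitters' processing notes, without their roles, and the counting's strand setting is not given in the sources used here. From the counts, CPM with TMM, log2 CPM (prior count 2) and exact Poisson 95% intervals were computed. These, and the limit of 3 counts, cover counting error only.

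Slopes were fitted with edgeR 4.0.16 in R 4.3.3 (genes with at least 10 counts in 3 of the 12 lines fitted). The fit was also run on simulated counts, drawn for each gene on its own. That run lacked the GC and length trends of the real libraries, and its outcome is not reported here. DESeq2 1.42.0, limma 3.58.1 on the deposited log2 values, other filters, priors and line sets, removal of each library's GC and length trend (GENCODE 29, 98.8% of symbols matched) and leaving out each line were alternatives. The restriction to 9 lines below the score's gap and the fit without both Lan-6 and GI-ME-N were chosen after seeing the data. The members and gene lists were chosen with earlier results of these data known. The text names the members, listed pathway genes past the threshold or at the ends of a range, and the 3 genes most like each member. Some listed genes are not reported here.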

Additional observations from a re-analysis of the deposited data

How the results depend on the processing

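No paired analysis was possible because the labels give 1 group with 1 library per line. Depth limits IFIH1, DHX58 and TLR3, which had few counts in most lines, and with 12 lines and no replicates a p measures spread between lines only. Counts of genes called on the interferon-stimulated gene score were 747 with DESeq2's Wald test (3 members) and 1 each with limma, with no filter and with all 14 lines. On the mesenchymal score they were 3046 with DESeq2, 710 with the subclones in place of their parents, 594 without both Lan-6 and GI-ME-N, and 463 (without GI-ME-N) to 1897 (without Lan-6) leaving out 1 line, with 587 without SK-N-SH. On MYCN they were 3268 with DESeq2 (3 members), 380 with limma, 1281 with all 14 lines (2 members), 0 with the subclones in place of their parents (0 members), 133 without both Lan-6 and GI-ME-N, and 4 (without IMR32) to 1515 (without SK-N-AS) leaving out 1 line, with 0 to 2 members. Leaving out SK-N-BE(2)C, GI-ME-N, LS, NBL-S, NGP, SK-N-DZ, SK-N-FI or SK-N-SH gave 216, 8, 335, 134, 8, 28, 363 and 14. With the GC and length trend removed 2 members were called on MYCN. On TERT they were 370 with DESeq2, 3 with no filter, 1 with all 14 lines and 0 to 2 leaving out 1 line (2 without CLB-GA). The cause of these changes was not tested.

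Slopes that changed sign were not called in any such fit. ADAR on the interferon-stimulated gene score was 0.10 within the 9 lines below the gap and -0.11 to 0.057 leaving out 1 line. On the mesenchymal score, DHX58 was 0.085 with limma, 0.0055 with the trend removed, 1.59 without both Lan-6 and GI-ME-N, and -0.40 to 1.22 leaving out 1 line (1.22 without Lan-6). MAVS on that score was 0.043 with the trend removed, 0.0098 without both libraries and -0.072 to 0.0016 leaving out 1 line, and ADAR was -0.055 with limma. EIF2AK2 on MYCN was -0.0092 with DESeq2 size factors, -0.0088 with DESeq2's test, -0.036 with all 14 lines, -0.033 with the subclones in place of their parents, -0.19 with the trend removed and -0.071 to 0.064 leaving out 1 line. MAVS on MYCN was -0.087 with the trend removed and -0.063 to 0.057 leaving out 1 line. ZBP1 on TERT was 0.019 with limma, 0.064 with the trend removed, 0.0011 with a prior count of 0.5 and -0.19 to 0.11 leaving out 1 line. EIF2AK2 on TERT was -0.036 with the trend removed, -0.11 without both libraries and -0.021 to 0.11 leaving out 1 line, and DDX58 on TERT was -0.44 to 0.0073 leaving out 1 line.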

Other observations

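The 99 genes with a known position among the 100 whose log2 CPM was most like that of ADAR over the 12 lines included 55 on chromosome 1, where ADAR lies, or 55.6%. Chromosome 1 holds 9.99% of the 12460 genes compared. Of the 55, 53 start beyond position 130000000, in the long arm, which holds 4.49% of the genes compared. The lowest r among them was 0.758. Among the 100 genes most like each other member, 0% (MAVS, ZBP1) to 9% (TLR3, EIF2AK2) lay on that member's own chromosome. The chromosomes of MAVS, ZBP1, TLR3 and EIF2AK2 hold 2.62%, 2.63%, 3.53% and 6.67% of the genes compared. These counts were chosen after their values were seen and have no test, and copy number was not measured here.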
